A study of Mus musculus with 54 samples.

Results

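H19, Igf2, Igf2r, Meg3, Dlk1, Cdkn1c, Peg3, Plagl1, Grb10 and Phlda2 are imprinted genes that act on growth in the mouse embryo and its extraembryonic tissues. They were taken by Ensembl gene ID from gene-level read counts of mouse extraembryonic endoderm cells, and are 10 of the 47729 genes counted. Each was followed across 40 RNA-seq libraries, 2 in each of 20 groups. The cells are cXEN cells, a stem cell line of the extraembryonic endoderm, in which the transcription factor Gata6 or Sox17 carries an FKBP tag, and the compound dTAGV1 directs the tagged protein to degradation. The study asked, as far as its labels show, what the cells express after loss of Gata6 or Sox17 protein, with and without FoxA2, and after exposure to BMP4.

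An imprinted gene is expressed mainly from the copy inherited from a given parent, the other copy being silenced through a control region whose DNA methylation is set in the germ line. Genes of the paternal copy, such as Igf2, Peg3, Dlk1 and Plagl1, mostly favour fetal and placental growth, while genes of the maternal copy, such as H19, Igf2r, Cdkn1c and Phlda2, mostly restrain it. Imprinted genes lie in clusters, in which a long non-coding RNA such as H19, Airn or Kcnq1ot1 often shares the control region with protein-coding genes. Extraembryonic endoderm gives rise to the visceral and parietal yolk sac, and the visceral yolk sac is a known site of H19 and Igf2 expression. The allele of origin was not measured here, so the values below are summed over both copies.

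Gata6-FKBP;FoxA2-/- and Sox17-FKBP;FoxA2-/- cells were measured at 0 and 48 h of degradation. The full courses used cXEN;Gata6-FKBP and cXEN;Sox17-FKBP cells in standard medium with 15% FBS, given 500 nM dTAGV1 for 6, 24, 48, 72 or 96 h, with DMSO cells as the 0 h group. In the BMP4 course, cXEN;Gata6-FKBP cells spent 24 h on gelatin in N2B27 medium with 1% FBS, which is the 0 h group without BMP4, and then 24 or 72 h in serum-free N2B27 with BMP4 at 25 ng/ml. The parental cXEN group carries no tag, and its labels give no treatment or time. No group analysed here had serum-free N2B27 without BMP4 at 24 or 72 h, so BMP4, serum removal and time in culture cannot be told apart. No untagged group received dTAGV1, so effects of the compound and of protein loss cannot be told apart. Whether a tagged or mutant line is 1 clone, and whether the 2 libraries of a group came from separate cultures, is not given in the sources used here. A mutation or tag and a difference between clones therefore cannot be told apart. The p-values reflect spread within groups in a fit of all 40 libraries, not only of those compared. That spread may be technical.

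The libraries held 16221873 to 42457384 reads in genes. The 10 extraembryonic endoderm markers used to check the label were present in every group, with summed levels between 14800 CPM in FoxA2-/- Gata6-FKBP cells and 44100 CPM in parental cXEN cells (CPM, the count of a gene scaled to a common library size, with TMM adjustment). Markers of fibroblasts, which serve as feeder cells, summed to 1360 to 1830 CPM in the parental libraries and to 5.83 to 12 CPM in every other group. In the parental group 7 of these 10 markers reached 1 CPM. Over all libraries the collagen genes Col1a1 and Col1a2 had 32734 and 33520 reads, while Thy1 had 6, Lum 9, Postn 77 and Dcn 167. The sum therefore does not by itself show that feeder cells were present. The mRNA of the tagged factors remained (Gata6 averaged 314 CPM at 48 h of Gata6 degradation and 269 CPM at 0 h), and Foxa2 reads remained in both mutants, so mRNA levels do not check these labels. The replicate pairs of BMP4 at 24 h and of Sox17 degradation at 24 h stood apart from the other groups, with a chi-square per degree of freedom between their libraries of 57.3 and 38.9. Reads in no annotated gene ran from 3.99 to 10.44 per 100 gene reads, highest at 72 h of BMP4. In these bulk libraries, fewer cells of a type and less RNA per cell cannot be told apart.

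Of the 10 genes, 5 lie on chromosome 7 (mm10): H19, Igf2 at chr7:142650768-142666816, Cdkn1c at chr7:143458339-143461059 and Phlda2 at chr7:143501545-143503145 near its distal end, and Peg3 at chr7:6703892-6730462. Dlk1 (chr12:109452485-109463336) and Meg3 (chr12:109540996-109571729) share a cluster on chromosome 12, and Igf2r is at chr17:12682406-12769706, Grb10 at chr11:11930499-12037428 and Plagl1 at chr10:13090832-13131694. The sequences below are those of genes whose values move most or whose upstream window holds a match for a factor under study. H19, a long non-coding RNA gene at chr7:142575530-142578146 (mm10, minus strand), is also the host of a microRNA that restrains placental growth. Both mature arms lie inside it, and each is shown with its seed, bases 2 to 8, in capitals (RefSeq, GRCm38.p6).
miR-675-5p, chr7:142577112-142577133, minus strand: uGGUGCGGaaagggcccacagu
miR-675-3p, chr7:142577078-142577099, minus strand: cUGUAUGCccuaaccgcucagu
The 2 seeds differ, so the arms fall into separate seed families. The Mir675 entry has 0 reads in all 40 libraries, and reads from the arms' precursor cannot be told apart from those of H19 in a gene count. RefSeq gives windows of 250 bases before to 50 bases after a start for 8 of the 10 genes, 13 windows in all. The start is the one a window was placed on, and each window shown lies inside its gene's span given above. The following are shown with motif matches in capitals.
Phlda2, chr7:143502475-143502774, minus strand, TATAAA: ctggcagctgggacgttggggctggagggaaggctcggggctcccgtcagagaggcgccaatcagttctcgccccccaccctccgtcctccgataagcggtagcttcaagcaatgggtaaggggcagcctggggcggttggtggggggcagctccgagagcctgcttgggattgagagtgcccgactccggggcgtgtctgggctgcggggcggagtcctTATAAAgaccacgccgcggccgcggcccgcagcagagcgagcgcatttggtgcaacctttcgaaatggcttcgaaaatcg
Igf2, chr7:142661222-142661521, minus strand, ATTGTT: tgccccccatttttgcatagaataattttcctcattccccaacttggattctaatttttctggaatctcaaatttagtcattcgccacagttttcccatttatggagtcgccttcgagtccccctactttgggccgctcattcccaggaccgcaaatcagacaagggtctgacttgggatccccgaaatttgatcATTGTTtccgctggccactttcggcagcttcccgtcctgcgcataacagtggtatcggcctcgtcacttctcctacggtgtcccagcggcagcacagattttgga
Dlk1, chr12:109452573-109452872, plus strand, TGTTTAC: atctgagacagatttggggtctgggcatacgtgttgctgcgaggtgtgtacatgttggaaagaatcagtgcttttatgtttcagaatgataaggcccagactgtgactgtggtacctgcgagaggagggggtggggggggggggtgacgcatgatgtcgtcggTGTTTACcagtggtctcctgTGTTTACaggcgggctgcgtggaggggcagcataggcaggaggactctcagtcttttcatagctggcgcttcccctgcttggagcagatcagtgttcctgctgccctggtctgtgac
Each of 4 short motifs was searched on both strands: AGATAA for GATA factors, AACAAT for SOX factors (ATTGTT is its reverse complement), TGTTTAC for FOXA factors and TATAAA for the TATA box. AGATAA was in none of the 13 windows, against 11.2% of all 32851 windows, and AACAAT in 1 of 13, against 10.7%. TGTTTAC occurs in the Dlk1 window alone, with 2 matches, both before the start, against 3.65% of all windows. TATAAA occurs in the Phlda2 window 30 bases before the start and in 1 Meg3 window, 2 of 13 against 13.6% overall. A match describes letters only and does not show a binding site. The Phlda2 window holds 26 CpG, the Igf2 window shown 14 and the Dlk1 window 9, against a median of 7 over all windows. The Igf2 windows not shown hold 2, 24 and 7.

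Read totals set what can be said of each gene. Over all libraries, Peg3 had 413196 reads, Igf2r 317089, H19 11924, Phlda2 6089, Cdkn1c 5404 and Igf2 1916. Grb10, which encodes an adaptor that dampens insulin and IGF receptor signalling, had 426 reads, most of them in FoxA2-/- Sox17-FKBP cells. Plagl1, a zinc-finger factor of an imprinted gene network, had 45 reads, Dlk1, a membrane ligand that holds back differentiation, had 29, and Meg3, the long non-coding RNA of the Dlk1 cluster, had 7. Meg3 and Plagl1 did not pass the filter on low counts and were not tested. Dlk1 passed only through the BMP4 72 h group and Grb10 only through the FoxA2-/- Sox17-FKBP groups, so 8 of the 10 genes were tested, and medians below are given over the 6 that had reads in every group.

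BMP4 at 72 h had the highest group mean of all 20 groups for H19, Igf2, Igf2r, Cdkn1c and Peg3. H19 averaged 194 CPM there, against 19.5 CPM in the next group, BMP4 at 24 h, and 0.139 CPM in parental cXEN cells, the lowest. Igf2 averaged 28.3 CPM at 72 h of BMP4, with BMP4 at 24 h next at 2.19 CPM and Sox17 degradation at 6 h lowest at 0.0405 CPM. Cdkn1c averaged 91.1 CPM at 72 h of BMP4, against 14.0 CPM in the next group, BMP4 at 24 h, and 0.233 CPM in the lowest, untreated FoxA2-/- Sox17-FKBP cells. For these genes the top group stood well clear of the second. Igf2r spanned less, 6.52-fold between 874 CPM at 72 h of BMP4 and 134 CPM in untreated FoxA2-/- Gata6-FKBP cells, and Peg3 spanned 10.1-fold between 1150 CPM at 72 h of BMP4 and 113 CPM in parental cells. Phlda2 followed another order. Its highest means were 34.4 and 29.4 CPM, in FoxA2-/- Gata6-FKBP cells at 48 and 0 h, and its lowest was 0.531 CPM at 48 h of Sox17 degradation, a 64.8-fold span. Below the top, many neighbouring groups in these orders had overlapping libraries: 12 of the 19 neighbouring pairs for H19, 16 for Igf2, 9 for Igf2r, 13 for Cdkn1c, 11 for Peg3 and 11 for Phlda2.

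**Figure D1:**
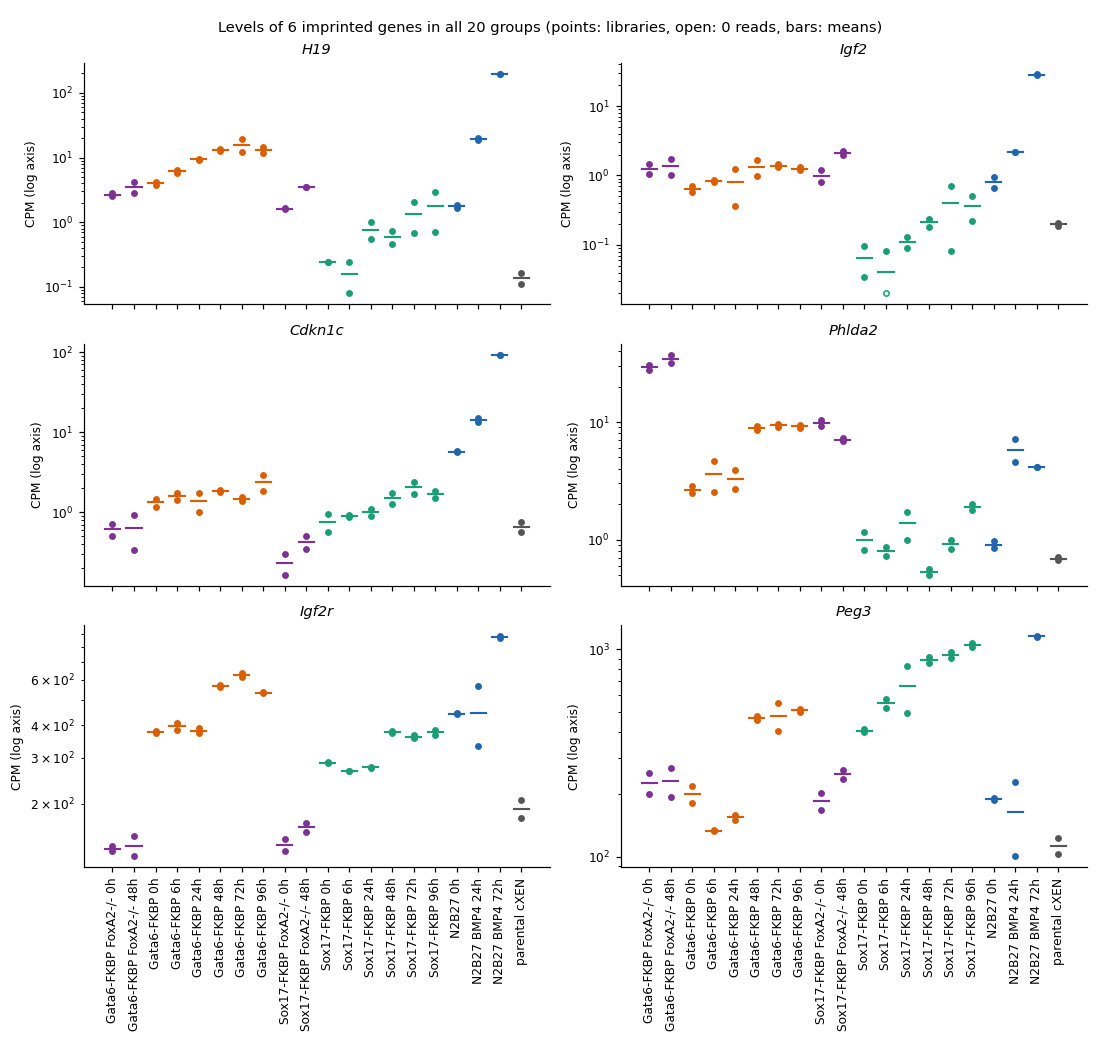
Level of the 6 imprinted genes with reads in every group, in CPM on a log axis, by group; points are single libraries and bars are the mean of the 2. H19, Igf2 and Cdkn1c peak at 72 h of BMP4 (194, 28.3 and 91.1 CPM), while Phlda2 peaks in FoxA2-/- Gata6-FKBP cells (34.4 and 29.4 CPM); the open point marks a library with 0 Igf2 reads.

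After 72 h of BMP4, all 6 genes with reads in every group were higher than at 0 h: H19, Igf2, Igf2r, Cdkn1c, Peg3 and Phlda2. Over all tested genes 62.8% were called in this comparison (adjusted p under 0.05), so the count is to be read against a transcriptome that changed widely. The median log2 change of the 6 genes was 3.29, against 0 over all tested genes. H19, whose RNA restrains growth in the placenta, had 193 and 196 CPM at 72 h and 1.86 and 1.69 CPM at 0 h. Its level was higher in both libraries by a log2 change of 6.77 (SE 0.31, adjusted p = 3.8e-16). Igf2, the growth factor made from the neighbouring gene, had 28.9 and 27.7 CPM at 72 h, against 0.959 and 0.666 CPM at 0 h (log2 change 5.13, SE 0.35, adjusted p = 1.6e-12). Cdkn1c, an inhibitor of cyclin-dependent kinases that slows the cell cycle, had 91.1 and 91.2 CPM at 72 h, against 5.75 and 5.68 CPM at 0 h (log2 change 3.99, SE 0.19, adjusted p = 5.5e-16). The groups did not overlap for any of these, and the 2 libraries of 72 h lay close together.

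Peg3, a zinc-finger repressor of the paternal copy, had 1150 and 1140 CPM at 72 h of BMP4, against 192 and 188 CPM at 0 h, a log2 change of 2.59 (SE 0.24, adjusted p = 6.7e-10). Phlda2, a pleckstrin-homology protein that limits placental growth, had 4.11 and 4.18 CPM at 72 h, against 0.839 and 0.973 CPM at 0 h, a log2 change of 2.18 (SE 0.30, adjusted p = 4.4e-07). Igf2r, the receptor that carries Igf2 to lysosomes, was higher by 0.98 on the log2 scale (SE 0.13, adjusted p = 1.8e-07), with 879 and 869 CPM at 72 h, against 443 and 446 CPM at 0 h. Dlk1 had 11 and 11 reads at 72 h and none at 0 h, so it was at least 6.48-fold higher (floor of 3 reads over the group). Dlk1 passed the filter only through this group, so its call is not counted here and no p is given. Grb10, Meg3 and Plagl1 gave no change that could be read.

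The course had an early and a late phase. At 24 h, 4 of 8 were higher and none lower, against 43.6% of all genes called, and the median of the 6 genes was 1.37. In a fit of the compared libraries alone, 3 were called, and 259 genes over all were called against 6371. H19 already had 18.9 and 20 CPM (log2 change over 0 h 3.45, SE 0.32, adjusted p = 4.2e-09), Cdkn1c 13.2 and 14.8 CPM (1.29, SE 0.19, adjusted p = 8.8e-06) and Igf2 2.18 and 2.2 CPM (1.44, SE 0.43, adjusted p = 0.0087). Phlda2 had 4.54 and 7.13 CPM at 24 h, a log2 change of 2.66 (SE 0.28, adjusted p = 5.1e-08), and so was high from 24 h on. The Igf2 call at 24 h was lost without the second library of either group (1.18 without the 0 h one). It was also lost in the fit of the compared libraries alone. Igf2r and Peg3 differed between the 24 h libraries themselves, with 565 and 332 CPM for Igf2r and 228 and 101 CPM for Peg3. Their 24 h means gave no call, and without replicate 1 at 24 h Igf2r was lower than at 0 h (log2 change -0.42), while without replicate 2 it was higher (0.35).

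Between 24 and 72 h of BMP4, 5 of the 6 genes rose and 1 fell, against 70.3% of all genes called. The median over the 6 genes was 2.75. H19 was higher by 3.32 on the log2 scale (SE 0.23, adjusted p = 1.9e-12), Igf2 by 3.69 (adjusted p = 2.1e-11), Peg3 by 2.80 (adjusted p = 8.7e-11), Cdkn1c by 2.70 (adjusted p = 2.1e-13) and Igf2r by 0.96 (adjusted p = 1.1e-07). Dlk1 had 11 and 11 reads at 72 h and 1 and 3 reads at 24 h, a 5.46-fold ratio with a 95% counting interval of 1.85 to 21.8. Phlda2 fell by 0.48 (SE 0.21, adjusted p = 0.045), a call lost without replicate 2 at 24 h (-0.12, adjusted p = 0.7) or either 72 h library, and also under DESeq2 (-0.47, adjusted p = 0.076), median-of-ratios scaling (adjusted p = 0.054), a replicate block (adjusted p = 0.052) and a fit of the compared libraries alone (adjusted p = 0.18).

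Reads outside genes moved with the late phase. They were 10.4 and 10.3 per 100 gene reads at 72 h of BMP4, against 5.6 and 5.7 at 0 h and 5.3 and 4.5 at 24 h. With that share as a covariate over all libraries, the 72 h changes over 0 h stayed called for H19, Igf2, Cdkn1c and Phlda2. They were no longer called for Igf2r (0.21, adjusted p = 0.53) and Peg3 (0.73, adjusted p = 0.068). From 24 to 72 h, H19 and Cdkn1c stayed called, while Igf2 had an unmoved estimate of 3.68 with adjusted p = 0.057, Peg3 0.57 (adjusted p = 0.31), Igf2r 0.04 (adjusted p = 0.96), and the Phlda2 estimate turned to 0.71 (adjusted p = 0.42). Over all genes, the covariate lowered the calls from 9185 to 2625 for 72 h over 0 h. For 72 h over 24 h it lowered them from 10275 to 1525. Visceral endoderm markers also moved: 7 of 8 were higher at 72 h, among them Afp at 54.4 CPM against 1.86 CPM at 0 h and Apoa1 at 64.9 CPM against 2.92 CPM. Their summed level was 1710 to 1720 CPM at 72 h and 1430 to 1440 CPM at 0 h, with Apob at 0 reads at 0 h. Cubn weighs most in the visceral endoderm sums here and below, with 865399 reads over all libraries, against 41956 for the next marker, Ttr. Extraembryonic endoderm markers summed to 17300 to 17600 CPM at 72 h and 25200 to 25400 CPM at 0 h, with 7 of 10 lower and 1 higher. Endothelial markers summed to 182 to 186 CPM at 72 h and 447 to 454 CPM at 0 h, with 4 of 5 tested lower, 0 higher and Emcn at 0 reads in both. Mitochondrial genes held 1.69% and 1.66% of gene reads at 72 h, against 0.792% and 0.783% at 0 h. The part of these shifts in the changes of the imprinted genes was not tested.

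**Figure D2:**
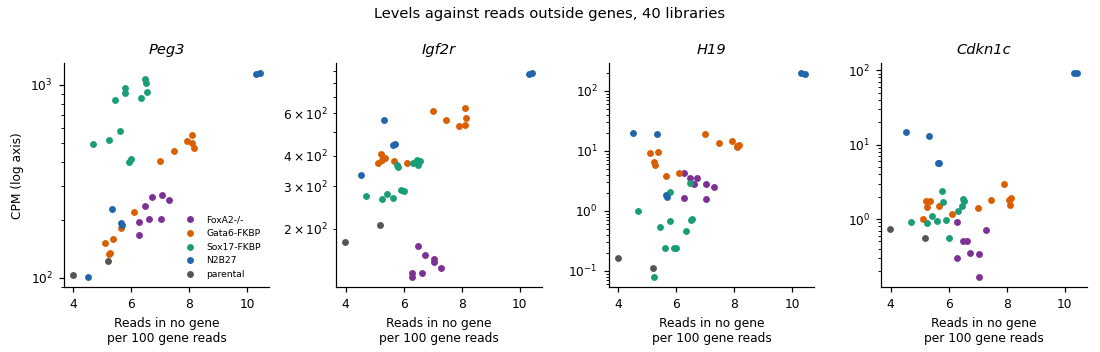
Level of Peg3, Igf2r, H19 and Cdkn1c in CPM on a log axis against reads in no annotated gene per 100 gene reads, 1 point for each of 40 libraries, coloured by kind of group. The 2 libraries of 72 h of BMP4 sit at the right edge, at 10.4 and 10.3, and hold the highest levels of H19 (193 and 196 CPM) and Cdkn1c (91.1 and 91.2 CPM).

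Of the genes around them, 5 of 11 tested imprinted neighbours were higher and 4 lower at 72 h of BMP4 than at 0 h, with a median log2 change of 0.14. Zim1, next to Peg3, had a mean of 23.7 CPM against 1.44 CPM (log2 change 4.06, SE 0.31, adjusted p = 1.6e-11). Ddc, next to Grb10, encodes a decarboxylase of amine synthesis and was higher by 4.0. Kcnq1ot1, the non-coding RNA of the Cdkn1c domain, had 27.6 CPM at 72 h and 3.65 CPM at 0 h (log2 change 2.91, SE 0.36), and Tssc4 fell by 0.98. Among 24 other imprinted genes tested, 11 were higher and 6 lower, with a median of 0.54. Peg10, a retrotransposon-derived gene needed for the placenta, reached 2470 CPM against 256 CPM, while H13 fell by 0.97. In the IGF pathway list, 7 of 16 were higher and 4 lower (median 0.40), with the mRNA-binding Igf2bp3 higher by 1.46 and Igf2bp2 by 1.25, and the receptor substrate Irs2 lower (-1.47). Of 11 genes that maintain imprints, 6 were higher and 4 lower (median 0.77), Arid4b by 2.85 and the corepressor Trim28 by -0.78.

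Degradation of Gata6 was followed by higher H19 first and then by higher Phlda2, Peg3 and Igf2r. No gene was called at 6 h, against 13.9% of all genes; edgeR gave Peg3 alone an unadjusted p under 0.05 (log2 change -0.58), and DESeq2 called 0. At 24 h H19 was called, 1 of 8 against 21.4% of all genes. At 48 h the count was 4 of 8, all higher, against 40.1%, at 72 h 4 against 39.6%, and at 96 h 5 against 40.3%. The median log2 change of the 6 genes was 0.32 at 6 h, 0.18 at 24 h, 1.12 at 48 h, 1.18 at 72 h and 1.15 at 96 h, while that of all tested genes was 0.02 at 6 h, 0.03 at 24 h and 0 at 48 h.

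H19 had 4.23 and 3.79 CPM at 0 h, 6.45 and 5.75 at 6 h, 9.31 and 9.56 at 24 h, 13.6 and 12.5 at 48 h, 19.3 and 12.1 at 72 h and 11.6 and 14.6 CPM at 96 h. Every library from 6 h on was above both 0 h libraries. The change over 0 h was 1.23 on the log2 scale at 24 h (SE 0.31, adjusted p = 0.0055), 1.70 at 48 h (SE 0.30, adjusted p = 3.6e-05), 1.96 at 72 h (adjusted p = 4.1e-06) and 1.71 at 96 h (adjusted p = 3.5e-05). Without replicate 1 at 0 h the 24 h change was 1.31 with adjusted p = 0.081. Phlda2 had 2.47 and 2.83 CPM at 0 h, between 2.56 and 4.65 CPM at 6 and 24 h, and 9.3 and 8.53 CPM at 48 h, 9.12 and 9.69 at 72 h and 9.53 and 8.86 at 96 h. It rose in a single step between 24 and 48 h, with log2 changes over 0 h of 1.75 at 48 h (SE 0.23, adjusted p = 4.8e-07), 1.83 at 72 h (adjusted p = 2.2e-07) and 1.80 at 96 h (adjusted p = 3.2e-07).

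Peg3 had 219 and 181 CPM at 0 h, 133 and 134 at 6 h, 151 and 159 at 24 h, 455 and 474 at 48 h, 402 and 550 at 72 h and 499 and 514 CPM at 96 h. All libraries of 6 and 24 h were below those of 0 h, though neither difference was called, and all from 48 h on were above (log2 change over 0 h 1.22 at 48 h, SE 0.23, adjusted p = 0.00012; 1.34 at 96 h, adjusted p = 3.9e-05). Igf2r had between 531 and 634 CPM from 48 h on, against 375 and 380 CPM at 0 h, a log2 change of 0.59 at 48 h (SE 0.13, adjusted p = 0.00041). Cdkn1c was called at 96 h, with 1.82 and 2.92 CPM against 1.17 and 1.48 CPM at 0 h (log2 change 0.83, SE 0.31, adjusted p = 0.033). That call rested on few reads. It was lost without either 0 h library, without replicate 2 at 96 h (0.46) and in a fit of the compared libraries alone. Igf2 had 0.982 and 1.68 CPM at 48 h, against 0.704 and 0.578 CPM at 0 h, and was not called (adjusted p = 0.11).

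Reads outside genes were 7.0 to 8.2 per 100 gene reads at 48, 72 and 96 h of Gata6 degradation, against 6.1 and 5.7 at 0 h. With that share as a covariate, Igf2r at 48 h was 0.23 (adjusted p = 0.16) and Peg3 0.36 (adjusted p = 0.11), and at 96 h they were 0.11 (adjusted p = 0.57) and 0.40 (adjusted p = 0.09), while the H19 and Phlda2 calls remained. Endothelial markers moved in the same groups, with 5 of 5 tested higher at 48 h and a summed level of 709 to 734 CPM, against 377 to 390 CPM at 0 h, and Emcn at 0 reads in both. Its part in these changes was not tested. At 48 h, 3 of 11 imprinted neighbours were higher and 2 lower (median 0.49), with Kcnq1ot1 higher by 1.14 and Cd81 by 0.49. Of 24 other imprinted genes, 7 were higher and 3 lower (median 0.25), with Peg10 higher by 0.95 and Sgce by 0.56. Of 16 IGF pathway genes, 3 were higher and 4 lower (median 0.05), with Igf2bp2 higher by 1.37 and Igf2bp3 lower (-0.96). Of 11 imprint maintenance genes, 3 were higher and 5 lower (median 0.06), with Trim28 at -0.63 and Uhrf1, which guides maintenance methylation, at -0.47.

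Degradation of Sox17 was followed mainly by higher Peg3 and, late, by higher H19, Cdkn1c and Igf2, from low starting levels. No gene was called at 6 h, against 1.74% of all genes; no unadjusted p from edgeR was under 0.05 and DESeq2 called 0. Calls numbered 1 at 24 h against 30.4% of all genes, 3 at 48 h against 30.9% and 5 at 72 h against 36.1%. At 96 h all 6 genes with reads in every group were called, against 40.5%. All of these calls were higher. Grb10 passed the filter only through the FoxA2-/- Sox17-FKBP groups, so its call at 96 h is not counted here. In a fit of the compared libraries alone, 5 genes were called at 96 h, with 7987 called over all genes against 5930. The median log2 change of the 6 genes was -0.18 at 6 h, 0.56 at 24 h, 1.04 at 48 h, 1.28 at 72 h and 1.23 at 96 h, against 0.02 at 48 h and 0.06 at 96 h over all tested genes.

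Peg3 had 414 and 397 CPM at 0 h, 520 and 575 at 6 h, 492 and 833 at 24 h, 859 and 920 at 48 h, 965 and 907 at 72 h and 1020 and 1070 CPM at 96 h. Every later library was above both 0 h libraries, and the 24 h libraries lay far apart. The log2 change over 0 h was 0.71 at 24 h (SE 0.23, adjusted p = 0.02), 1.13 at 48 h (adjusted p = 0.00032), 1.21 at 72 h (adjusted p = 0.00013) and 1.37 at 96 h (SE 0.23, adjusted p = 2.1e-05). Without replicate 2 at 24 h, the 24 h change was 0.28 and not called. Nor was it called without either 0 h library or in a fit of the compared libraries alone. H19 had 0.245 and 0.239 CPM at 0 h, 0.677 and 2.03 CPM at 72 h and 0.716 and 2.89 CPM at 96 h. The later libraries were all above 0 h but spread widely, with log2 changes of 2.42 (SE 0.59, adjusted p = 0.0017) and 2.86 (SE 0.56, adjusted p = 0.00014). Without replicate 2 at 72 h the first was 1.47 (adjusted p = 0.15), and without replicate 2 at 96 h the other was 1.55 (adjusted p = 0.086).

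Cdkn1c had 0.561 and 0.956 CPM at 0 h, 1.28 and 1.76 at 48 h, 1.71 and 2.36 at 72 h and 1.85 and 1.49 CPM at 96 h. These later libraries all exceeded 0 h, with log2 changes of 0.95 at 48 h (SE 0.31, adjusted p = 0.018), 1.35 at 72 h (SE 0.28, adjusted p = 0.00039) and 1.08 at 96 h (SE 0.30, adjusted p = 0.0047). Leaving out single libraries ended the 48 h call (0.68 and 0.69, without replicate 1 at 0 h or replicate 2 at 48 h) and the 96 h call (0.80 and 0.91, without replicate 1 at 0 h or at 96 h). Igf2 had 0.035 and 0.0956 CPM at 0 h, 0.713 and 0.0829 CPM at 72 h and 0.505 and 0.219 CPM at 96 h. Its 72 h call (2.47, SE 0.80, adjusted p = 0.015) rests on a library with 20 reads beside a library with 2, and without replicate 1 at 72 h the change was 0.21 (adjusted p = 0.94). The 96 h call (2.28, SE 0.84, adjusted p = 0.031) was lost without either 0 h library or replicate 1 at 96 h (1.56, adjusted p = 0.34).

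Igf2r changed little, with 286 and 288 CPM at 0 h, 373 and 381 at 48 h, 358 and 367 at 72 h and 367 and 384 CPM at 96 h. Its log2 changes were 0.39 (adjusted p = 0.018), 0.33 (adjusted p = 0.038) and 0.39 (adjusted p = 0.014), and the first 2 calls were lost without any 1 of the 4 libraries compared, the last without either 0 h library or replicate 2 at 96 h. Phlda2 had 2.02 and 1.79 CPM at 96 h, against 1.16 and 0.813 CPM at 0 h (log2 change 0.99, SE 0.29, adjusted p = 0.0063), a call lost without replicate 2 at 0 h (0.72) or replicate 1 at 96 h (0.90). At 48 h Phlda2 had 0.502 and 0.56 CPM, below both 0 h libraries but not called (log2 change -0.84, adjusted p = 0.092). Grb10 had 9 and 8 reads at 96 h (0.379 and 0.35 CPM), against 0 and 2 reads at 0 h (0 and 0.0478 CPM). That is a 12.8-fold ratio with a counting interval of 3.05 to 115, and no p is given.

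Visceral endoderm markers moved with these groups, 6 of 8 being higher at 48 h and at 96 h of Sox17 degradation, with summed levels of 1110 to 1200 CPM at 96 h and 946 to 999 CPM at 0 h and none of the 8 at 0 reads. Endothelial markers were higher for 4 of 5 tested at 48 h, with sums of 430 to 439 CPM at 48 h and 392 to 400 CPM at 0 h. Pluripotency markers were higher for 3 of 4 tested and lower for 1 at 72 h (sums of 39 to 45.7 CPM, against 29.4 to 30.4 CPM at 0 h). Trophoblast markers were higher for 2 of 3 tested and lower for 1 at 72 and 96 h, while their summed level was 3.68 to 4.38 CPM at 96 h, against 7.07 to 8.24 CPM at 0 h. The part of these shifts in the changes of the imprinted genes was not tested. At 96 h, 6 of 11 imprinted neighbours were higher and 1 lower (median 0.59), Zim1 with 62.6 CPM against 12.2 CPM at 0 h (log2 change 2.37, SE 0.22, adjusted p = 7.8e-10) and the lipid transfer gene Osbpl5 by 1.03. Of the other imprinted genes, 7 of 24 were higher and 1 lower (median 0.17), with Blcap higher by 1.11, Peg10 by 0.84 and Sfmbt2, a polycomb-related gene of the placenta, lower (-0.76). Of the IGF pathway, 7 of 16 were higher and 2 lower (median 0.39), with the binding protein Igfbp5 higher by 4.11 and Igf2bp1 lower (-0.59). Of the imprint maintenance genes, 0 of 11 were higher and 7 lower (median -0.39), including Uhrf1 at -0.73, Dnmt3l at -0.61, Trim28 at -0.53 and Dnmt1 at -0.43.

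Set against each other at 48 h, the Gata6 and Sox17 responses differed for 1 of 8 genes, Phlda2, against 17.1% of all genes. The Gata6 response minus the Sox17 response was 2.60 on the log2 scale (SE 0.43, adjusted p = 8.2e-05): Phlda2 had 9.3 and 8.53 CPM against 2.47 and 2.83 CPM in the Gata6 course, and 0.502 and 0.56 CPM against 1.16 and 0.813 CPM in the Sox17 course. The median difference over the 6 genes was 0.14. For the other tested genes, the difference was not called, which does not show that the responses were alike.

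**Figure D3:**
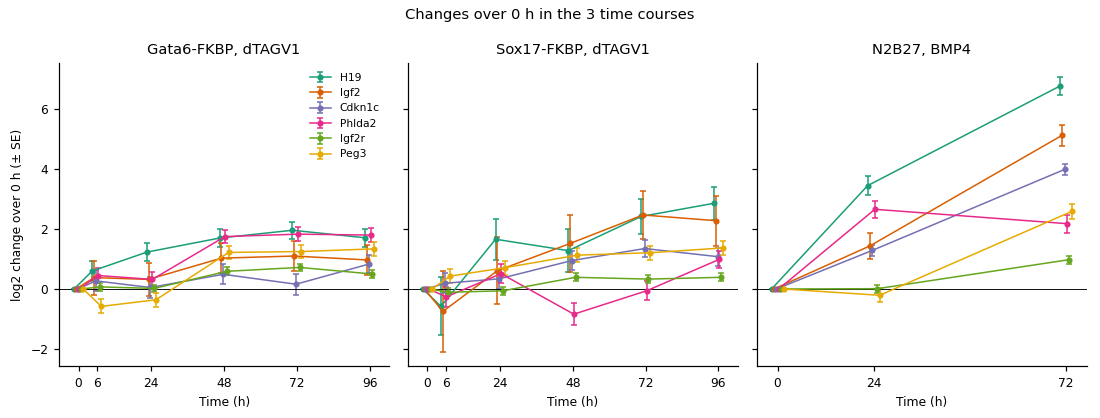
Log2 change over 0 h (± SE) of 6 imprinted genes by hours of Gata6 degradation, Sox17 degradation and BMP4. Phlda2 reaches 1.75 at 48 h of Gata6 degradation and -0.84 at 48 h of Sox17 degradation, and H19 reaches 6.77 at 72 h of BMP4.

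Before any degradation, Phlda2 was higher and Igf2r and Cdkn1c were lower in FoxA2-/- than in FoxA2-intact cells of both tagged lines. Of the 6 genes with reads in every group, 1 was higher and 2 lower in the Gata6 line, against 48.3% of all genes called, and the median was -0.20. In the Sox17 line 3 were higher and 3 lower, against 50.6%, and the median was 0.84; the medians of all tested genes were 0 and 0.02. Phlda2 had 30.8 and 27.9 CPM in FoxA2-/- Gata6-FKBP cells, against 2.47 and 2.83 CPM with FoxA2 intact, a log2 change of 3.47 (SE 0.21, adjusted p = 7.8e-14). It had 9.18 and 10.5 CPM in FoxA2-/- Sox17-FKBP cells, against 1.16 and 0.813 CPM with FoxA2 intact, a change of 3.36 (SE 0.22, adjusted p = 3.3e-13). The groups are far apart in both lines, and the difference between the lines' changes was 0.12 (SE 0.35, adjusted p = 0.84).

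Igf2r had 131 and 137 CPM in FoxA2-/- Gata6-FKBP cells, against 375 and 380 CPM with FoxA2 intact (log2 change -1.49, SE 0.13, adjusted p = 1.4e-10). In the Sox17 line it had 146 and 131 CPM, against 286 and 288 CPM (-1.05, SE 0.13, adjusted p = 5.6e-08). All 4 mutant libraries lay between 131 and 146 CPM, below every FoxA2-intact library of either line. Cdkn1c had 0.503 and 0.718 CPM in FoxA2-/- Gata6-FKBP cells, against 1.17 and 1.48 CPM with FoxA2 intact (-1.10, SE 0.39, adjusted p = 0.022). In the Sox17 line it had 0.166 and 0.3 CPM, against 0.561 and 0.956 CPM (-1.67, SE 0.41, adjusted p = 0.001). These are low counts: the Gata6-line call was lost without replicate 2 with FoxA2 intact or replicate 1 of the mutant (-0.87, adjusted p = 0.15), and with the share of reads outside genes in the fit (-0.96, adjusted p = 0.054), and the Sox17-line call was lost without replicate 2 with FoxA2 intact (-1.18, adjusted p = 0.081).

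H19, Igf2 and Peg3 separated the lines. H19 had 1.59 and 1.66 CPM in FoxA2-/- Sox17-FKBP cells, against 0.245 and 0.239 CPM with FoxA2 intact (log2 change 2.73, SE 0.53, adjusted p = 9.4e-05), and 2.83 and 2.51 CPM in FoxA2-/- Gata6-FKBP cells, against 4.23 and 3.79 CPM (-0.59, adjusted p = 0.18). Igf2 had 0.796 and 1.2 CPM in FoxA2-/- Sox17-FKBP cells, against 0.035 and 0.0956 CPM (3.75, SE 0.63, adjusted p = 1.3e-05), and 1.05 and 1.44 CPM in FoxA2-/- Gata6-FKBP cells, against 0.704 and 0.578 CPM (0.95, adjusted p = 0.13). Both genes rose in the Sox17 line, where FoxA2-intact cells held few reads of them, and neither was called in the Gata6 line. Peg3 had 203 and 167 CPM in FoxA2-/- Sox17-FKBP cells, against 414 and 397 CPM (-1.13, SE 0.23, adjusted p = 0.00015), and 201 and 254 CPM in FoxA2-/- Gata6-FKBP cells, against 219 and 181 CPM (0.19). Grb10 had 79 and 101 reads in untreated FoxA2-/- Sox17-FKBP cells (2.62 and 2.33 CPM), against 0 and 2 with FoxA2 intact, an 86.2-fold ratio with a counting interval of 23.5 to 717. Grb10 passed the filter only through these mutant groups, so its call is not counted here and no p is given. Plagl1 had 8 reads in these mutant libraries and 0 with FoxA2 intact, at least 2.55-fold higher, and was not tested.

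The difference of the FoxA2 effects, Gata6 line minus Sox17 line, was a test chosen after the values had been seen. It called 3 of 8 genes, 1 higher and 2 lower, against 39% of all genes, with a median of -0.16 over the 6 genes. H19 differed by -3.31 (SE 0.65, adjusted p = 0.00015), Igf2 by -2.81 (SE 0.89, adjusted p = 0.014) and Peg3 by 1.32 (SE 0.33, adjusted p = 0.0018), while Igf2r differed by -0.44 (adjusted p = 0.051). The Igf2 difference was not called without replicate 1 of either line at 0 h or without replicate 2 of the untreated Sox17-line mutant (adjusted p up to 0.065).

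The lines differed in marker levels too. The 7 trophoblast markers summed to 18.9 to 19 CPM in FoxA2-/- Gata6-FKBP cells, against 1.47 to 1.54 CPM with FoxA2 intact, with 3 of 3 tested higher and Eomes at 14.1 CPM against 1.08 CPM. In the Sox17 line they summed to 5.4 to 5.7 CPM in FoxA2-/- cells, against 7.07 to 8.24 CPM, but 2 of 3 tested were higher and 1 lower, with Eomes at 2.31 CPM against 0 CPM. Tpbpa and Prl3d1, which define later trophoblast, were at 0 reads in every group. Visceral endoderm markers summed to 936 to 1050 CPM in FoxA2-/- Gata6-FKBP cells, against 680 to 684 CPM. Of these 8 markers, 2 were higher and 3 lower, with Ttr and Apob at 0 in the mutant. Endothelial markers summed to 65.2 to 66.3 CPM, against 377 to 390 CPM, with 1 of 5 tested higher and 3 lower. In the Sox17 line the visceral endoderm sum was 1320 to 1440 CPM in the mutant, against 946 to 999 CPM. Of the 8 markers, 2 were higher and 5 lower, with Apob at 0. The endothelial sum was 96.8 to 103 CPM, against 392 to 400 CPM, with 1 of 5 tested higher and 4 lower. Cdh5 weighs most in the endothelial sums, with 249049 reads over all libraries, against 50558 for Tek. The part of these marker shifts in the changes of the imprinted genes was not tested. Imprinted neighbours had 3 higher and 1 lower of 11 in the Gata6 line (median 0.01) and 2 higher and 5 lower in the Sox17 line (median 0.01), where Zim1 was at 1.04 CPM against 12.2 CPM (log2 change -3.49, SE 0.29, adjusted p = 4.2e-11). Other imprinted genes had 8 higher and 4 lower of 24 in the Gata6 line (median 0), with Peg10 at 1280 CPM against 247 CPM, and 11 higher and 4 lower in the Sox17 line (median 0.31), with Ppp1r9a higher by 3.15. In the IGF pathway, 5 of 16 were higher and 4 lower in the Gata6 line (median 0.12), and 5 higher and 5 lower in the Sox17 line (median 0.19). The secreted protease Htra1, which cuts IGF binding proteins, was higher in both (5.34 and 4.13), the insulin receptor gene Insr lower in the Gata6 line (-2.19) and Igfbp4 lower in the Sox17 line (-5.09). Imprint maintenance genes had 1 higher and 2 lower of 11 in each line (median 0.01 in each), Dnmt3l being the one that was higher (0.85 and 0.89).

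**Figure D4:**
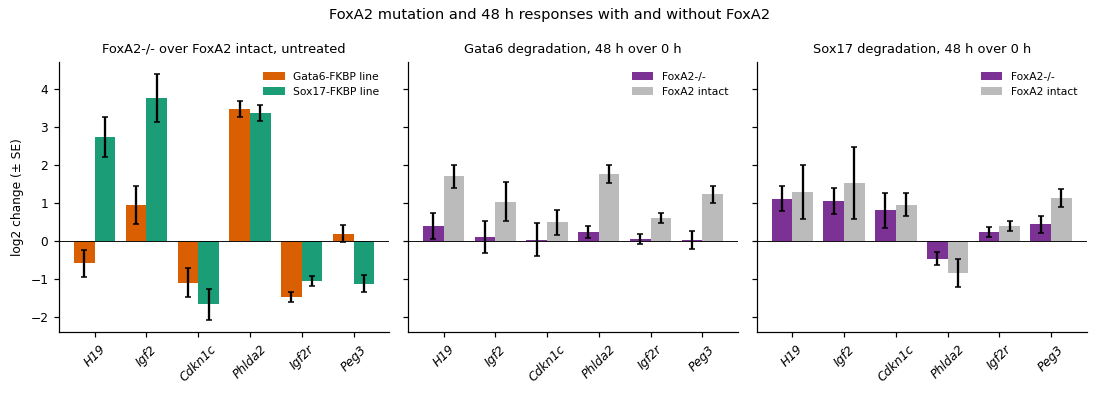
Log2 change (± SE) of 6 imprinted genes: FoxA2-/- over FoxA2-intact untreated cells in the Gata6 and Sox17 lines, and 48 h over 0 h of degradation in FoxA2-/- and in FoxA2-intact cells. Phlda2 is higher with FoxA2 lost in both lines (3.47 and 3.36), and the response of Phlda2 to Gata6 degradation is 0.23 in FoxA2-/- cells and 1.75 in FoxA2-intact cells.

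In FoxA2-/- cells, 48 h of Gata6 degradation gave no call among the 8 genes, against 0.239% of all genes, with a median of 0.08; no unadjusted p from edgeR was under 0.05, and DESeq2 called 0. H19 had 2.79 and 4.26 CPM at 48 h, against 2.83 and 2.51 CPM at 0 h, and Phlda2 31.7 and 37.1 CPM, against 30.8 and 27.9 CPM. Peg3 had 268 and 194 CPM, against 201 and 254 CPM, and Igf2r 150 and 126 CPM, against 131 and 137 CPM. The libraries of both times overlapped for H19, Peg3 and Igf2r. The 48 h response was lower in FoxA2-/- than in FoxA2-intact cells for 4 of 8 genes, against 27% of all genes, with a median difference of -1.06 over the 6 genes. The difference was -1.53 for Phlda2 (SE 0.28, adjusted p = 0.00015), -1.19 for Peg3 (SE 0.33, adjusted p = 0.0071), -1.31 for H19 (SE 0.47, adjusted p = 0.037) and -0.55 for Igf2r (SE 0.18, adjusted p = 0.023). The H19 difference was lost in 7 of 8 fits that left out 1 library (-1.40 to -1.04, adjusted p up to 0.13), that of Igf2r without replicate 2 of any group (adjusted p up to 0.14), and that of Peg3 without replicate 2 of the mutant at 48 h (-0.98, adjusted p = 0.061). With reads outside genes as a covariate, Igf2r differed by -0.14 (adjusted p = 0.62) and Peg3 by -0.21 (adjusted p = 0.58).

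Sox17 degradation for 48 h in FoxA2-/- cells also gave no call, against 2.76% of all genes, with a median of 0.62. Here edgeR gave 3 genes an unadjusted p under 0.05, and DESeq2 called 1, H19 (log2 change 1.12, adjusted p = 0.038). H19 had 3.54 and 3.51 CPM at 48 h, against 1.59 and 1.66 CPM at 0 h (1.11, SE 0.32, adjusted p = 0.061). Igf2 had 1.99 and 2.26 CPM, against 0.796 and 1.2 CPM (1.05, adjusted p = 0.11), and Phlda2 6.85 and 7.35 CPM, against 9.18 and 10.5 CPM (-0.47, adjusted p = 0.19). The 2 times did not overlap for these genes. Visceral endoderm markers summed to 2270 to 2310 CPM at 48 h and 1320 to 1440 CPM at 0 h, with 3 of 8 higher and Apob at 0 in both, and their part was not tested. Only 3 of the 8 markers reached 1 CPM at 0 h and 4 at 48 h. In a fit of the 4 compared libraries alone 5 of 8 genes were called. That fit called 865 genes in all, against 403 in the fit of all libraries. The difference of this response from that in FoxA2-intact cells was called for 0 of 8 genes, against 14.4% of all genes, with a median of -0.17; Peg3 alone had an unadjusted p under 0.05 from edgeR, and DESeq2 called 0.

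The move from standard medium to N2B27 with 1% FBS, before BMP4, gave 1 higher and 2 lower of 8, against 41.5% of all genes, with a median of 0.08 over the 6 genes. Cdkn1c had 5.75 and 5.68 CPM in N2B27, against 1.17 and 1.48 CPM in standard medium (log2 change 2.11, SE 0.27, adjusted p = 5.3e-07). Phlda2 had 0.839 and 0.973 CPM, against 2.47 and 2.83 CPM (-1.53, SE 0.33, adjusted p = 0.00049), and H19 1.86 and 1.69 CPM, against 4.23 and 3.79 CPM (-1.18, SE 0.40, adjusted p = 0.019). The H19 call was lost without replicate 1 in standard medium or either N2B27 library (adjusted p up to 0.11). Visceral endoderm markers moved too, with 5 of 8 higher and 1 lower and sums of 1430 to 1440 CPM in N2B27, against 680 to 684 CPM, and pluripotency markers were lower for 3 of 4 tested, with sums of 14.3 to 14.4 CPM, against 26.8 to 27.4 CPM. Apob was at 0 reads in N2B27, as were Nanog and Esrrb, and the part of these shifts was not tested. Cdkn1c was thus higher, and H19 and Phlda2 lower, at the start of the BMP4 course than in standard medium. Of the lists, 2 of 11 neighbours were higher and 1 lower (median -0.13), 5 of 24 other imprinted genes higher and 7 lower (median 0.02), 4 of 16 IGF pathway genes higher and 3 lower (median 0.24), and 1 of 11 maintenance genes higher and 6 lower (median -0.66).

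The tagged lines differed from the parental cells and from each other before treatment. Against parental cXEN, the untreated Gata6 line was higher for 6 of 8 genes, against 47.8% of all genes (median of the 6 genes 1.35), and the Sox17 line for 2 of 8, against 57.1% (median 0.53). H19 had 4.23 and 3.79 CPM in the Gata6 line, against 0.112 and 0.166 CPM in parental cells (log2 change 4.81, SE 0.61, adjusted p = 1.9e-07). Phlda2 had 2.47 and 2.83 CPM, against 0.709 and 0.663 CPM (1.93, SE 0.32, adjusted p = 1.5e-05). Both were clear of the parental libraries. Igf2r was higher by 0.98 (adjusted p = 2.9e-07). Igf2 had 0.704 and 0.578 CPM in the Gata6 line, against 0.186 and 0.207 CPM in parental cells, and Cdkn1c 1.17 and 1.48 CPM, against 0.559 and 0.746 CPM. Calls for Igf2 (1.69, SE 0.70, adjusted p = 0.049), Cdkn1c (1.02, SE 0.38, adjusted p = 0.027) and Peg3 (0.82, SE 0.23, adjusted p = 0.0049) were less stable. That of Igf2 was lost without any of the 4 libraries (1.52 to 1.81) and under median-of-ratios scaling. That of Cdkn1c was lost without Gata6 replicate 2 or parental replicate 1 (0.85 and 0.82) and in a fit of the compared libraries alone. That of Peg3 was lost without Gata6 replicate 1 or parental replicate 2 (0.66 and 0.69). In the Sox17 line Peg3 had 414 and 397 CPM, against 123 and 103 CPM in parental cells (1.84, SE 0.24, adjusted p = 2.2e-07), and Igf2r 286 and 288 CPM, against 206 and 176 CPM (0.59, adjusted p = 0.00027). Plagl1 had 0 reads in the untreated Gata6 and Sox17 lines and 17 in the parental libraries, at least 3.63-fold and 7.83-fold lower.

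Fibroblast markers were lower in both tagged lines (0 of 8 tested higher and 8 lower in each), and reads outside genes were 6.1 and 5.7 per 100 gene reads in the untreated Gata6 line and 5.2 and 4.0 in the parental libraries. With that share as a covariate, Peg3 in the Gata6 line was 0.01 above parental cells (adjusted p = 0.96), Igf2 1.68 (adjusted p = 0.084) and Igf2r in the Sox17 line 0.25 (adjusted p = 0.11). Whether feeder cells were present, and their part in these differences, was not tested. Between the untreated lines, Gata6 over Sox17, 4 genes were higher and 1 lower, 5 of 8 against 48% of all genes, with a median of 1.10. The changes were 4.02 for H19 (SE 0.50, adjusted p = 1.5e-07), 3.09 for Igf2 (SE 0.79, adjusted p = 0.0021), 1.45 for Phlda2 (SE 0.29, adjusted p = 0.00014), 0.39 for Igf2r (adjusted p = 0.011) and -1.02 for Peg3 (SE 0.23, adjusted p = 0.00063). The Igf2r call was lost without Gata6 replicate 2 or either Sox17 library (adjusted p up to 0.058). Zim1, beside Peg3, was also lower in the Gata6 line, 1.49 CPM against 12.2 CPM (-3.01, SE 0.32, adjusted p = 1.1e-08), and 12.2 CPM in the Sox17 line stood against 0.667 CPM in parental cells.

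Across the 20 group means, on the log2(CPM + 0.5) scale, members of a cluster tracked one another to different degrees; these correlations are descriptions over groups that share lines and time courses. H19 and Igf2, on either side of a shared control region, had r = 0.89 and rho = 0.84, and r = 0.82 without the 2 groups farthest from the H19 median. Peg3 and Zim1 had r = 0.95 (0.94 without the 2 farthest) and Peg3 and Usp29 r = 0.88 (0.84). Cdkn1c and Phlda2, in the same domain, had r = -0.08, and Cdkn1c and Kcnq1ot1 r = 0.19. Igf2r and Airn, which overlap on opposite strands, had r = 0.43; the strand setting of the counting is not stated, so reads of this pair, and of Kcnq1 and Kcnq1ot1, cannot be told apart. Growth factor and receptor, Igf2 and Igf2r, had r = 0.37, which was 0 without the 2 farthest groups. H19 and Cdkn1c, which peak in the same group, had r = 0.72, and 0.43 without the 2 farthest.

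Out of 9572 genes averaging 5 CPM or more, which leaves out Igf2, those whose group means were most like each member were found by the same correlation over 20 groups, with r without the 2 farthest groups given after each. They were Sgpl1 (0.897 and 0.862), Gpc3 (0.885 and 0.855) and Gigyf1 (0.88 and 0.819) for H19, and Zim1 (0.949 and 0.944), Dlg3 (0.928 and 0.909) and Kif1b (0.926 and 0.929) for Peg3. For Igf2r they were Rnf103 (0.935 and 0.918), Clps (0.93 and 0.924) and Csf2ra (0.918 and 0.941). For Cdkn1c they were Serpinf2 (0.931 and 0.812), Phyh (0.894 and 0.619) and Etfdh (0.89 and 0.847). Phlda2 was most like Grpel2 (0.938 and 0.908), C130074G19Rik (0.916 and 0.855) and Itpk1 (0.915 and 0.886).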

How the data were processed

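Total RNA was extracted with Trizol, per the labels' protocols. HISAT2, HTSeq and mm10 are named, per the submitters' processing notes; versions, annotation and strand setting are not given in the sources used here. The authors deposited whole-number read counts per gene for each of 40 libraries, with no normalization. Summary rows, 14.8% to 19.7% of records, were left out of library sizes and tests. The 14 chromatin samples were not analysed here.

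Counts were fitted with edgeR 4.0.16 in R 4.3.3 (quasi-likelihood, 1 mean per group, TMM, filterByExpr), 14625 genes tested, 20 residual degrees of freedom, biological coefficient of variation 8.2%. A gene was called at Benjamini-Hochberg adjusted p under 0.05 over all tested genes. Genes were matched by Ensembl ID, and 47224 of 47729 have a symbol. CPM values are TMM-scaled. Count ratios of nearly silent genes have exact 95% intervals and a floor of 3 reads over a group, both covering counting error only. The fit was tested on simulated data. The genes and lists were chosen with earlier results of these data known. Genes called with a log2 change of at least 1 have every library's value printed, at least once in the text. From each other list, up to 4 called genes per comparison with at least 5 CPM and the smallest adjusted p could be named, and all list counts printed cover the tested genes. Alternatives were another scaling, no filter, DESeq2 1.42.0, only the compared libraries, a replicate block, reads outside genes as a covariate and leaving out each library. CPM values are not per transcript length, so levels are not compared between genes.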

Additional observations from a re-analysis of the deposited data

Results flagged for a closer look

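Phlda2 responded differently to 48 h of Gata6 and of Sox17 degradation, the Gata6 response minus the Sox17 response being 2.60 on the log2 scale (SE 0.43, adjusted p = 8.2e-05 from edgeR); both Gata6-course libraries at 48 h were above 0 h and both Sox17-course libraries were below.

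In FoxA2-/- cells the response to 48 h of Gata6 degradation was lower than in FoxA2-intact cells, by a difference of -1.53 for Phlda2 (adjusted p = 0.00015), -1.19 for Peg3 (adjusted p = 0.0071), -1.31 for H19 (adjusted p = 0.037) and -0.55 for Igf2r (adjusted p = 0.023). The H19 difference was lost in 7 of 8 fits without 1 library. With reads outside genes as a covariate the Peg3 difference was -0.21 (adjusted p = 0.58) and that of Igf2r -0.14 (adjusted p = 0.62), and the Peg3 difference was also lost without replicate 2 of the mutant at 48 h (adjusted p = 0.061) and that of Igf2r in 4 of 8 fits without 1 library. The Phlda2 difference was lost in none of the alternatives run.

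The effect of FoxA2 loss before degradation differed between the lines, Gata6 line minus Sox17 line, by -3.31 for H19 (adjusted p = 0.00015), -2.81 for Igf2 (adjusted p = 0.014) and 1.32 for Peg3 (adjusted p = 0.0018), in a test added after the data had been seen. The Igf2 difference was lost without replicate 1 of either FoxA2-intact line or replicate 2 of the untreated Sox17-line mutant (adjusted p up to 0.065).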

How the results depend on the processing

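Counts below are of the 8 tested genes, with the count of the main edgeR fit in brackets. They cover counts that moved by over 1.5 times. Counts and single-gene calls in this section include those of Dlk1 and Grb10 that are not counted above. Examples are BMP4 at 72 h and Sox17 degradation at 96 h. The cause of a change was not tested. With no filter on low counts the calls numbered 2 (0) at 6 h and 2 (1) at 24 h of Gata6 degradation, 1 (0) and 2 (1) at the same times of Sox17 degradation, 3 (0) for Sox17 degradation in FoxA2-/- cells and 1 (0) for the difference of Sox17 responses. Over all genes, in the same order, those fits called 2366 (2027), 2957 (3131), 396 (255), 4269 (4451), 430 (403) and 1920 (2108). With only the compared libraries the calls of the 8 genes were 1 (0), 2 (1), 1 (0) and 0 (1) at those times, 5 (0) in the Sox17-line mutant, 2 (1) for the difference of Gata6 and Sox17 responses and 1 (0) for the difference of Sox17 responses. Over all genes, in the same order, they were 1265 (2027), 2429 (3131), 1287 (255), 625 (4451), 865 (403), 3047 (2503) and 4356 (2108). With reads outside genes as a covariate the calls of the 8 genes were 2 (4) at 48 h and 3 (5) at 96 h of Gata6 degradation, 1 (0) at 6 h of Sox17 degradation, 4 (7) for BMP4 at 72 h over 0 h, 2 (7) for 72 h over 24 h, 3 (0) in the Sox17-line mutant, 1 (2) for the Sox17 line over parental cells and 2 (4) for the difference of Gata6 responses. Over all genes, in the same order, they were 5079 (5864), 4677 (5893), 455 (255), 2625 (9185), 1525 (10275), 699 (403), 6264 (8357) and 2943 (3956). Calls for BMP4 at 72 h thus fell across all genes too. DESeq2 gave 2 (1) at 24 h of Sox17 degradation and 1 (0) in the Sox17-line mutant. Smaller moves under DESeq2 were 6 (7) for BMP4 at 72 h over 0 h and 5 (7) for 72 h over 24 h, where Dlk1 had no DESeq2 value, 4 (3) at 48 h of Sox17 degradation and 4 (3) for the difference of FoxA2 effects. Over all genes DESeq2 called, in the order of these comparisons, 4530 (4451), 505 (403), 8942 (9185), 9987 (10275), 4449 (4513) and 5595 (5706).

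Leaving out each library in turn gave 0 to 1 calls at 24 h of Gata6 degradation, 0 to 2, 1 to 2, 3 to 4 and 4 to 5 at 24, 48, 72 and 96 h of Sox17 degradation, and 2 to 3 for the difference of Gata6 responses. Turns of direction were counted only where the reported or the turned change was called, and for correlations. Estimates that changed sign without a call were not counted. By this rule directions turned in 3 cases: Igf2r at 24 h of BMP4 was -0.42 without replicate 1 and 0.35 without replicate 2, Phlda2 from 24 to 72 h of BMP4 was 0.71 with reads outside genes as a covariate, and the correlation of H19 with Peg3 was -0.40 without the 2 farthest groups, against 0.10 over all 20.

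Same-numbered libraries did not deviate together (r between -0.15 and 0.15 over 21 comparisons), and replicate numbers were not used to pair the libraries. Such correlations cannot show whether same-numbered libraries were grown or processed together. A replicate block gave 6 calls against 7 for BMP4 72 h over 24 h and 6 against 5 for the Gata6 over the Sox17 line, and left every other count as it was. Under median-of-ratios scaling, 80 of 82 single-gene calls were kept. Depth limits Meg3, Plagl1, Dlk1 and, outside the FoxA2-/- Sox17-FKBP groups, Grb10, and changes of Igf2 and H19 in the Sox17 line rest on a few reads.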
